A study of Mus musculus with 3 samples.

Results

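The S100 family codes for small proteins that bind calcium through paired EF-hand loops and act mostly as dimers. The rows of 6 family members, S100a4, S100a6, S100a8, S100a9, S100a10 and S100a11, were taken by symbol from the 32285 genes counted in CD45-positive cells of 4T1 mammary tumors. Each of 3 groups was sequenced as 1 droplet library of leukocytes pooled from 3 tumors of female BALB/c mice aged 6 to 8 weeks. All mice had received 200000 luciferase-labelled 4T1 cells in the fourth mammary fat pad, and live (7AAD-negative) cells were sorted at day 14. The vehicle group bore p38 wild-type tumors and was given DPBS by daily gavage for 10 days from day 4. The p38i group bore the same tumors and was given LY2228820 (ralimetinib), an oral inhibitor of the p38 kinases, at 30 mg/kg on the same days. The p38KO group bore 4T1 cells in which Mapk14, the gene of p38α, was inactivated by CRISPR/Cas9, and has no treatment in the labels. The p38KO cells were a single clone (H9), and the loss is in the tumor cells only, so every leukocyte measured here carried an intact Mapk14.

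In innate immune cells the best known pair of the family is S100A8 and S100A9, which join as calprotectin, fill the cytosol of neutrophils, bind calcium, zinc and manganese, and signal through TLR4 and RAGE once released. S100A10 holds no calcium of its own and pairs with annexin A2, a membrane-binding protein, whereas S100A11 pairs with annexin A1. S100A4 binds non-muscle myosin and is also called metastasin, and S100A6 is also called calcyclin. All members lie on chromosome 3 of GRCm38, in 2 groups inside 2961 kb. S100a4 (plus strand, 90603771 to 90606045), S100a6 (plus, 90612882 to 90624181), S100a8 (plus, 90668978 to 90670035) and S100a9 (minus, 90692632 to 90695721) form the first group, 92.0 kb long. S100a11 (plus, 93520488 to 93526287) and S100a10 (plus, 93555080 to 93564643) form the second. These are the spans of whole protein-coding genes in GENCODE M21. S100a4 overlaps the model Gm42674 on the same strand, so reads of the overlap cannot be assigned with certainty.

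RefSeq promoter windows on GRCm38.p6, which run from 250 bases before to 50 bases after the annotated start, were at hand for 5 of the 6 members, all but S100a10. The bases before the start are shown for S100a8 and S100a9, since this pair was nearly confined to neutrophils, and for S100a4, nearly absent from neutrophils, and S100a11, abundant there. They stop short of the first exon that GENCODE annotates. This leaves out the last 93 bases before the RefSeq start for S100a8 and the last 8 for S100a11. Capitals mark the matched motifs within the printed bases, so the TATA box of S100a8 named below is not among them.
S100a8 (plus strand, chr3:90668821-90668977): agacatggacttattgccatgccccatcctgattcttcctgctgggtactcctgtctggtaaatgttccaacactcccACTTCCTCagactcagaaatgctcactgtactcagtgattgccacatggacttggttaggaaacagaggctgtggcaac
S100a9 (minus strand, chr3:90695722-90695971): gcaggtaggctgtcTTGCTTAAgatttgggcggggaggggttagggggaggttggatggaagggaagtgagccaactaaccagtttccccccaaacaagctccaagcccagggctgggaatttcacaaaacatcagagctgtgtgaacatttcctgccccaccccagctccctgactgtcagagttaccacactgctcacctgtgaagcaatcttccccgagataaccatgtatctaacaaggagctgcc
S100a4 (plus strand, chr3:90603520-90603769): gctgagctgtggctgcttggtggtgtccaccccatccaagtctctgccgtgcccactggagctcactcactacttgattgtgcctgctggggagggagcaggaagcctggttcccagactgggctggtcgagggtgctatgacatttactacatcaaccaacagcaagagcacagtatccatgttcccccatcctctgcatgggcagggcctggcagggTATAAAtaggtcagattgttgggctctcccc
S100a11 (plus strand, chr3:93520246-93520487): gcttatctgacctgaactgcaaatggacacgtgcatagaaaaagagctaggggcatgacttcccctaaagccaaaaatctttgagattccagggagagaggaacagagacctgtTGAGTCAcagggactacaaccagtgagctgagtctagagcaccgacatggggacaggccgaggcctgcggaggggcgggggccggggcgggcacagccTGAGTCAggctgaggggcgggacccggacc

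A search of the 300 bases for 4 motifs gave the following matches, with positions counted from the RefSeq start as 1. The TATA box letters TATAAA on the gene's strand, which 8.32% of 32851 such windows hold, began at -31 in S100a4, at -30 in S100a8 and at 1 in S100a9. The letters GAGGAAGT of the myeloid factor PU.1 on either strand, held by 3.20% of the windows, began at -172 in S100a8 and at 18 in S100a4. The letters TTGCNNAA of the C/EBP factors on either strand, held by 10.8%, began at -236 in S100a9. The letters TGANTCA of AP-1, held by 7.81%, began at -136 and at -38 in S100a11. The window of S100a6 held none of these letters, and a match is a description of letters, not evidence of binding.

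The libraries held 4588, 6343 and 5212 barcodes (vehicle, p38i and p38KO in this order throughout) with between 21675352 and 25997636 unique molecular identifiers (UMIs), tags that count each captured transcript once. A barcode was retained as a cell if it had 1500 UMIs, 300 genes and no more than 20% of counts from mitochondrial genes, which left 3820, 4793 and 3859 cells. Their cell types were set by gates on raw counts. The gate genes were Csf3r or Cxcr2 for neutrophils, Ly6c2 and Fn1 for monocytes and C1qa for macrophages. They were Cd3e for T cells, Ncr1 for NK cells and Flt3 for dendritic cells. Each gate had the genes of the other gates at 0, except that Ly6c2 and Fn1 were not limited in macrophages. Nor was Ly6c2 limited in T and NK cells. The gates took 68.7%, 72.0% and 57.7% of the kept cells. Gate genes of more than 1 type were found in 18.4%, 16.4% and 28.1% of the kept cells, gated macrophages with monocyte genes included. The p38KO library thus stood apart, and it also had the highest median mitochondrial share (0.671%, 0.968% and 2.10%). The summed level of each type's separate markers was highest in its own gate in every library, and only Klra8 of the NK list was at 0 in its own gate. Pairs of libraries shared 4 or 5 barcodes. No member served as a gate gene.

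Levels are counts per 1000000 (CPM), the counts of a gene summed over the cells of a gate and divided by all counts of that gate and library. Since the protocol tags each transcript once at its end, levels were compared between genes without a length term. There was 1 library per group, so no test between groups was possible. Bracketed ranges are 95% intervals for counting error alone, without any spread between mice or preparations. A log2 ratio is called past the fold limit at 0.5 or more either way with at least 20 counts over both libraries.

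S100a9 was the most abundant transcript of the neutrophil gate in all 3 libraries, and S100a8 was the second. In 1714, 2164 and 1247 neutrophils, S100a9 had 104454, 116114 and 82038 CPM. S100a8 had 68009, 80124 and 52771 CPM in the same cells. Together they made up 17.2%, 19.6% and 13.5% of all neutrophil UMIs. Both genes thus had the same order of libraries, p38i above vehicle above p38KO. S100a8 had 0.651, 0.690 and 0.643 counts for each count of S100a9, so the proportion of the calprotectin subunits differed less between libraries than their amount did.

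Against vehicle, S100a8 was 1.18 times as high in the neutrophils of p38i tumors (log2 ratio 0.24, 0.23 to 0.24), and S100a9 was 1.11 times as high (0.15, 0.15 to 0.16). In p38KO tumors the log2 ratio of S100a8 was -0.37 (-0.37 to -0.36) and that of S100a9 was -0.35 (-0.36 to -0.34). Neither gene passed the fold limit in either comparison. The median of all genes with at least 20 counts lay at 0.12 for p38i and at 0.10 for p38KO in this gate. Relative to those medians S100a8 stood at 0.12 and -0.46, and S100a9 at 0.033 and -0.45, so the p38KO differences grew and that of S100a9 in p38i nearly vanished. In both comparisons the vehicle library is the same.

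The distribution over single neutrophils differed at its lower end as well as its centre. The median cell held 512 S100a8 UMIs per 10000 UMIs with vehicle, 643 with p38i and 405 with p38KO. The tenth percentile was 46.4, 103 and 24.7 per 10000, a wider relative gap than at the ninetieth percentile, where it was 1273, 1391 and 1185. For S100a9 the medians were 953, 1086 and 766 per 10000 and the tenth percentiles 146, 219 and 66.6. After each cell was thinned to 1500 UMIs, 98.1%, 97.9% and 96.0% of neutrophils still had an S100a8 UMI. Over thinned cells the counts of both genes went together, with Pearson's r of 0.814, 0.801 and 0.841 (1714, 2164 and 1247 cells, each set from 1 library). In the neutrophil gate mast cell and basophil markers summed to 8.57, 61.5 and 143 CPM and macrophage markers to 211, 251 and 443 CPM. Monocyte markers summed to 69.2, 102 and 59.7 CPM. The part of these markers in the differences between libraries was not tested.

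**Figure D1:**
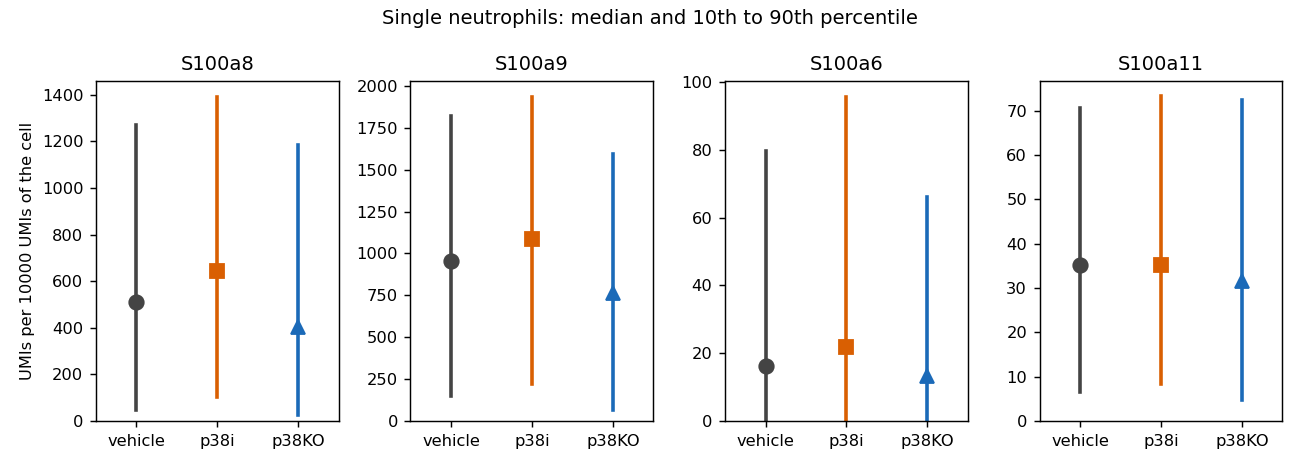
UMIs of 4 members per 10000 UMIs of the cell in single neutrophils, by library, with symbols at the median and lines from the 10th to the 90th percentile on linear axes from 0. S100a8, S100a9 and S100a6 have their highest median in the p38i library and their lowest in the p38KO library, whereas S100a11 medians lie between 31.6 and 35.1.

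S100a6 and S100a11 formed the next tier in neutrophils. S100a6 had 3769, 4511 and 2746 CPM, which gave log2 ratios of 0.26 (0.23 to 0.29) for p38i and -0.46 (-0.49 to -0.42) for p38KO. It followed the order of S100a8 and S100a9, and it passed the limit in p38KO, at -0.56, relative to the median of all genes. S100a11, the annexin A1 partner, had 3823, 3943 and 3577 CPM. Its log2 ratios were 0.04 (0.02 to 0.07) and -0.10 (-0.13 to -0.06), of which the first became -0.075 relative to the median of all genes. S100a11 was ranked 22, 21 and 27 among the genes counted in neutrophils and S100a6 was ranked 23, 18 and 31.

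S100a4 and S100a10 were nearly absent from neutrophils. S100a4 had 39.4, 74.8 and 36.4 CPM, and S100a10 had 35.1, 54.2 and 43.6 CPM. In p38i the log2 ratio of S100a4 was 0.93 (0.68 to 1.18) and that of S100a10 was 0.63 (0.36 to 0.90). They were the only members of the 6 past the fold limit in neutrophils. Of all genes, 22.9% passed in that comparison, 16.9% as higher and 6.08% as lower. In p38KO none of the 6 passed, against 24.1% of all genes, 16.8% as higher and 7.27% as lower. The S100a4 level of neutrophils was 2.49%, 4.54% and 2.78% of that in monocytes of the same library, and the summed level of 6 monocyte markers in neutrophils was 2.69%, 4.49% and 2.14% of its monocyte level. After thinning, 2.45%, 3.84% and 2.73% of neutrophils had an S100a4 UMI. The p38i difference of S100a4 therefore moved with the monocyte markers, whose part in it was not tested. The S100a10 difference turned to -0.046 under stricter gates.

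Within neutrophils, cells were split by Cxcr2, the receptor that draws neutrophils towards CXC chemokines, and Ccl3, a chemokine made by activated myeloid cells, after thinning. S100a8 had 77807, 88524 and 62357 CPM in Cxcr2+ Ccl3- cells, and 47962, 61338 and 36682 CPM in Ccl3+ Cxcr2- cells. The Cxcr2+ cells were thus higher by 0.70, 0.53 and 0.77 on the log2 scale. S100a9 differed between the subsets by 0.76, 0.54 and 0.87, S100a6 by 0.90, 0.69 and 1.11, and S100a11 by 1.17, 0.78 and 1.28. All 4 abundant members were therefore higher in the Cxcr2+ cells of every library, and the p38i library had the smallest difference for each. In both subsets S100a8, S100a9 and S100a6 kept the order p38i above vehicle above p38KO. The S100a8 log2 ratio of p38i to vehicle was 0.19 in Cxcr2+ cells and 0.35 in Ccl3+ cells, and that of p38KO was -0.32 and -0.39. S100a11 had ratios of -0.02 and -0.03 in Cxcr2+ cells and of 0.37 (p38i) and -0.14 (p38KO) in Ccl3+ cells. S100a4 lay the other way, at 20.8, 37.9 and 15.6 CPM in Cxcr2+ cells and 66.3, 61.2 and 128 CPM in Ccl3+ cells, but the p38i direction turned when the subsets were set at full depth. With p38KO, 1 neutrophil held 49 of the gate's 111 S100a4 counts. It lay among the Ccl3+ cells, which held 57 counts in all, so the p38KO difference rested mainly on 1 cell. The subsets held 837, 1090 and 646 Cxcr2+ cells and 301, 315 and 180 Ccl3+ cells.

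**Figure D2:**
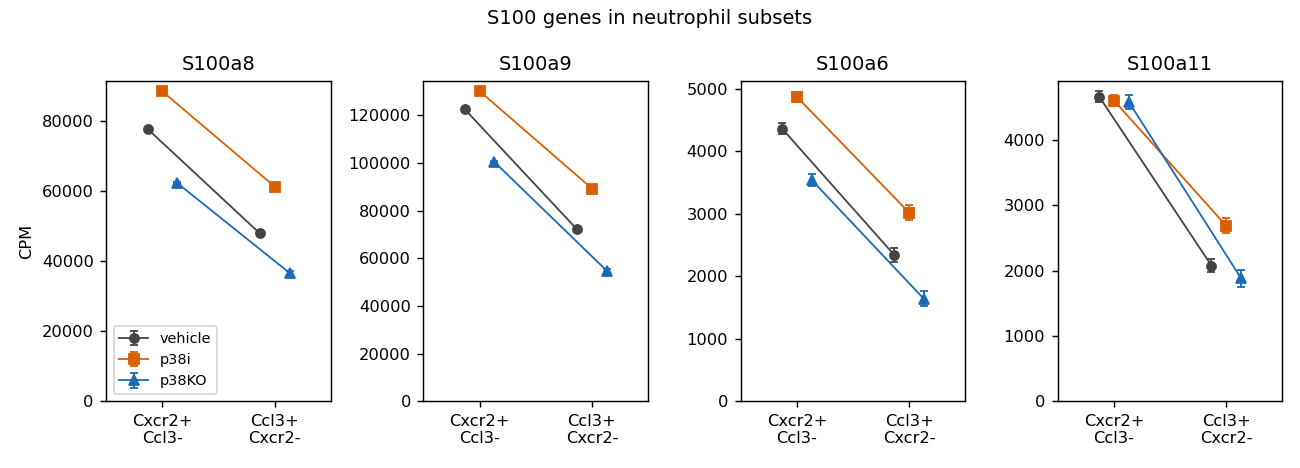
CPM of 4 members in Cxcr2+ Ccl3- and Ccl3+ Cxcr2- neutrophils of each library, on linear axes from 0, with exact Poisson 95% intervals that are mostly smaller than the symbols. Every line falls from left to right, and for S100a8, S100a9 and S100a6 the p38i symbols lie highest and the p38KO symbols lowest in both subsets.

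Outside neutrophils, S100a8 and S100a9 were at a small fraction of these levels. T cells, not a known source of calprotectin and used here as the reference level, had 190, 168 and 175 CPM of S100a8 and 370, 272 and 291 CPM of S100a9. That was 0.279%, 0.209% and 0.332% of the neutrophil level for S100a8 and 0.355%, 0.234% and 0.354% for S100a9. Over a reference list of 14 other neutrophil genes the median of the same percentage was 0.455%, 0.566% and 0.404%. Retnlg, a resistin-like protein of neutrophils, stood at 0.20%, 0.16% and 0.11%, whereas Ifitm1, an interferon-induced membrane protein that lymphocytes also make, reached between 8.80% and 22.0%. At 1500 UMIs per cell, 15.4%, 18.4% and 12.5% of T cells had an S100a8 UMI and 26.8%, 31.4% and 18.2% had an S100a9 UMI (median full depth 4895.5, 3836.5 and 4543.5 UMIs, against 2447.5, 2168 and 2114 in neutrophils). S100a8 per count of S100a9 was 0.513, 0.618 and 0.602 in T cells, below the neutrophil value with vehicle and with intervals that overlapped it in the other libraries (0.547 to 0.696 and 0.525 to 0.690). How much of the T cell level was free RNA was not tested.

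In CPM, macrophages and dendritic cells did not stand above that reference for either gene in any library. NK cells did so only with vehicle for S100a8 (209 CPM, with an interval that overlaps that of T cells). CPM divides by depth, and the median macrophage held 13809, 16293.5 and 11162.5 UMIs, so a comparison per cell can differ. At full depth, 68.5%, 67.7% and 45.2% of macrophages had an S100a8 UMI, against 40.8%, 41.0% and 28.6% of T cells. For S100a9 these shares were 79.3%, 89.2% and 64.2% against 63.2%, 61.0% and 37.0%. Without T cells of 20 or more S100a8 UMIs the reference was 106, 121 and 73.4 CPM of S100a8 and 209, 228 and 111 CPM of S100a9. NK cells with vehicle, with all their cells kept, lay above it for both genes. There, the 5 NK cells with the most S100a8 held 58.7% of its counts. Macrophages, with all their cells kept, lay above it for S100a8 with p38i and p38KO and for S100a9 with p38KO. Without macrophages of 20 or more S100a8 UMIs, the S100a8 level was 80.3, 79.6 and 56.9 CPM, below that reference in every library. S100a9 was then 151, 153 and 116 CPM, above the reference only with p38KO. Macrophages had 98.7, 150 and 146 CPM of S100a8 and 170, 228 and 211 CPM of S100a9. NK cells had 209, 118 and 40.2 CPM of S100a8 and 315, 220 and 107 CPM of S100a9. Dendritic cells had 77.1, 92.7 and 28.1 CPM of S100a8 and 185, 157 and 76.3 CPM of S100a9. The p38KO library thus had the lowest levels in NK and dendritic cells, with log2 ratios of -2.37 (-3.03 to -1.76) and -1.46 (-2.94 to -0.16) for S100a8, while that of T cells was -0.12 (-0.32 to 0.08). Its NK gate also held 679 CPM of mast cell and basophil markers, against 1.72 CPM with vehicle and 1.57 CPM with p38i, whose part in these values was not tested.

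In CPM, monocytes were the only gate besides neutrophils with S100a8 above the T cell level in all libraries. They had 472, 797 and 833 CPM in 235, 458 and 151 cells. S100a9 had 375, 619 and 332 CPM there, and its intervals overlapped those of T cells with vehicle and p38KO. S100a8 exceeded S100a9, with 1.26, 1.29 and 2.51 counts for each count of S100a9, the reverse of neutrophils. In every library few cells held most of the S100a8 counts. In the monocytes with fewer than 20 S100a8 UMIs, a choice that itself tends to lower the proportion, the same values were 0.75, 0.966 and 1.15. They still lay above the neutrophil values of 0.651, 0.690 and 0.643, though no interval was computed for them. The log2 ratios of S100a8 were 0.76 (0.65 to 0.86) for p38i and 0.82 (0.69 to 0.95) for p38KO, and S100a9 had 0.72 (0.60 to 0.84) for p38i and -0.18 (-0.36 to 0.00) for p38KO. In the p38i comparison S100a8 and S100a9 passed the limit, 2 of 6 members against 18.3% of all genes (11.8% higher and 6.52% lower). In p38KO S100a8 alone did, against 22.7% of all genes (14.3% higher and 8.34% lower).

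These monocyte differences changed without a few cells. Only 7, 22 and 5 monocytes had 20 or more S100a8 UMIs, and they held 67.0%, 76.7% and 83.0% of all S100a8 counts of the gate. Without them S100a8 had 159, 195 and 149 CPM and S100a9 had 212, 202 and 129 CPM. Neither ratio of S100a8 then passed the limit (0.29 for p38i and -0.098 for p38KO), while S100a9 passed as lower in p38KO (-0.71). S100a8 itself had chosen the cells left out, so its ratios do not stand apart from that choice. The cells left out had between 13240 and 15173 CPM of S100a8, well below neutrophils. Their S100a4 level was 1715, 1555 and 1271 CPM, close to that of the other monocytes and far above neutrophils, and their neutrophil markers summed to 1080, 2173 and 811 CPM, against 10682 to 12560 CPM in neutrophils and 202 to 335 CPM in the other monocytes. S100a8 per count of S100a9 was 1.88, 1.43 and 3.32 in these cells, which S100a8 itself had chosen, and 0.75, 0.966 and 1.15 in the other monocytes. Their share of the gate was 2.98%, 4.80% and 3.31%. Over the 14 reference neutrophil genes, the whole monocyte gate had a median of 12.2%, 8.88% and 8.48% of the neutrophil level. The lowest gene stood at 0.420%, 0.484% and 0.366%, and the highest at 70.7% (Cd177), 39.8% (Mmp8) and 73.4% (Cd177). Whether the cells left out were monocytes with S100a8 of their own, mixed droplets or cells of another type was not tested.

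In macrophages the same split gave 1, 1 and 3 cells with 20 or more S100a8 UMIs. They held 18.7%, 47.3% and 61.1% of the gate's S100a8 counts and had no S100a4 count. Their median depth was 1671, 17938 and 1806 UMIs. Of all macrophages only 33.3%, 32.3% and 20.3% had an S100a4 UMI at full depth, so its lack says little in any library. S100a8 had 20946, 8306 and 75719 CPM in these cells, and neutrophil markers summed to 4189, 167 and 2184 CPM. In the whole macrophage gate S100a8 had passed the limit at 0.60 (0.34 to 0.87) for p38i and at 0.57 (0.33 to 0.81) for p38KO. Without these cells the ratios were -0.012 and -0.50, but S100a8 itself had again chosen the cells left out. For T cells, 1, 2 and 2 such cells held 44.1%, 28.4% and 58.2% of the S100a8 counts, and without them its level was 106, 121 and 73.4 CPM. The p38KO ratios in T cells then passed as lower, at -0.53 for S100a8 and -0.91 for S100a9. Neither the macrophage nor the T cell ratios of S100a8 stand apart from that choice of cells.

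**Figure D3:**
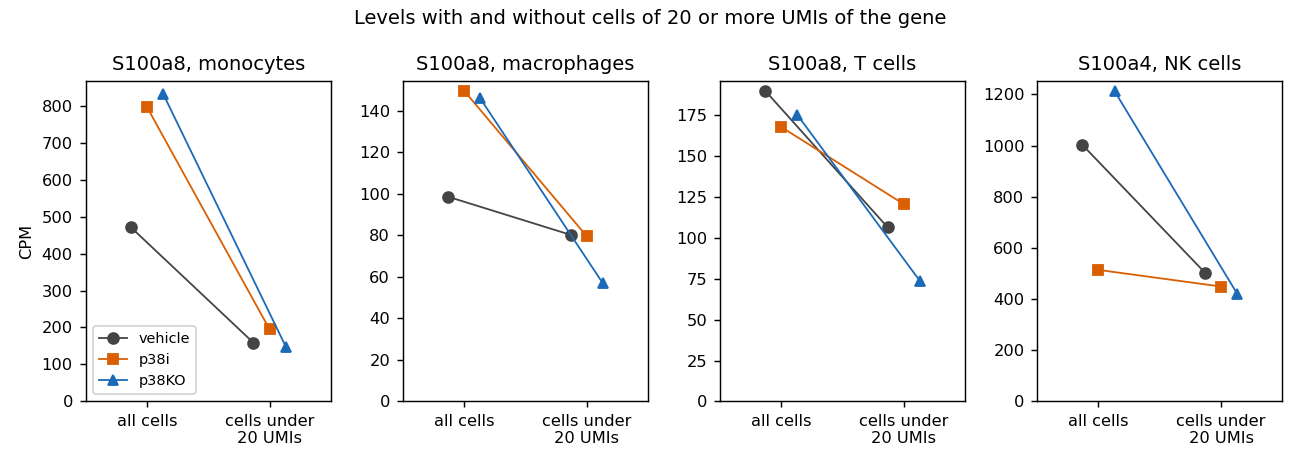
CPM of S100a8 in monocytes, macrophages and T cells, and of S100a4 in NK cells, over all gated cells and over the cells with fewer than 20 UMIs of that gene, by library on linear axes from 0. The monocyte levels of 472 to 833 CPM drop to 149 to 195 CPM once the 7, 22 and 5 cells with the most S100a8 are left out.

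The other 4 members were prominent in monocytes. S100a6 had 4526, 4522 and 3733 CPM, S100a11 had 1995, 1942 and 1582 CPM, S100a4 had 1582, 1650 and 1309 CPM, and S100a10 had 1573, 1532 and 1255 CPM. With p38i their log2 ratios lay between -0.039 and 0.060. With p38KO they were -0.28 (-0.33 to -0.23) for S100a6, -0.33 (-0.42 to -0.25) for S100a11, -0.27 (-0.36 to -0.18) for S100a4 and -0.33 (-0.42 to -0.24) for S100a10. All 4 were thus lower in the p38KO library by a similar amount, within the fold limit, beside a median of 0.039 over all genes. Markers of plasmacytoid dendritic cells in the same gate summed to 111, 216 and 333 CPM and epithelial markers to 5.87, 4.61 and 46.9 CPM, and their part in these differences was not tested. The S100a4 share of thinned cells with a UMI was 62.6%, 68.8% and 61.6%, and that of S100a10 was 76.6%, 73.6% and 66.2%.

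Monocytes were further split by Chil3, a chitinase-like protein of recently arrived monocytes, and Arg1, an enzyme of suppressive myeloid cells. S100a4 had 2210, 2459 and 1291 CPM in Chil3+ Arg1- monocytes and 923, 1071 and 1084 CPM in Arg1+ Chil3- monocytes. It was higher in the Chil3+ cells by 1.26 with vehicle and 1.20 with p38i on the log2 scale, but by 0.25 with p38KO. The p38KO library held only 12 such Chil3+ cells, against 34 and 44. In Arg1+ cells S100a6 had 4318, 4526 and 4307 CPM, S100a11 had 1600, 1717 and 1523 CPM, and S100a10 had 1289, 1534 and 1260 CPM. S100a8 had 202, 588 and 522 CPM in the same cells, with log2 ratios to vehicle of 1.54 for p38i and 1.37 for p38KO. S100a9 had 259, 247 and 168 CPM there, higher in neither group than with vehicle. The 7, 22 and 5 monocytes with 20 or more S100a8 UMIs, which held most S100a8 counts of the whole gate, were not left out of the subsets.

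In macrophages all 4 of these genes were far below monocytes. S100a6 had 631, 701 and 360 CPM, S100a11 had 493, 622 and 364 CPM, S100a10 had 363, 439 and 247 CPM, and S100a4 had 147, 137 and 102 CPM in 111, 130 and 330 cells. The p38KO library was lowest for each. S100a6 had a log2 ratio of -0.81 (-0.92 to -0.70), S100a10 of -0.56 (-0.69 to -0.42) and S100a4 of -0.52 (-0.74 to -0.30), all past the limit, and S100a11 had -0.44 (-0.55 to -0.32). With S100a8, which was higher, 4 of 6 members passed, where 22.4% of all genes did (15.4% higher and 6.95% lower) and the median of all genes was 0.035. The 3 lower members stayed past the limit under all 8 alternatives in gating, scaling and cell filter. The 5% of macrophages with most counts of the gene (6, 6 and 16 cells) held 52.2%, 55.2% and 79.5% of S100a4 counts. For S100a6 these shares were 40.0%, 33.8% and 56.9%, and for S100a10 they were 22.4%, 21.5% and 36.7%. The ratios were not recomputed without such cells. In p38i only S100a8 passed, against 18.9% of all genes (9.02% higher and 9.84% lower). The thinned share of macrophages with an S100a10 UMI was 44.1%, 44.6% and 21.2%. The summed level of 6 macrophage markers in the same gate was 16918, 20183 and 25832 CPM and that of monocyte markers was 575, 705 and 610 CPM. Mast cell and basophil markers summed to 0.528, 0 and 56.6 CPM there, and the part of these markers in the differences was not tested.

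**Figure D4:**
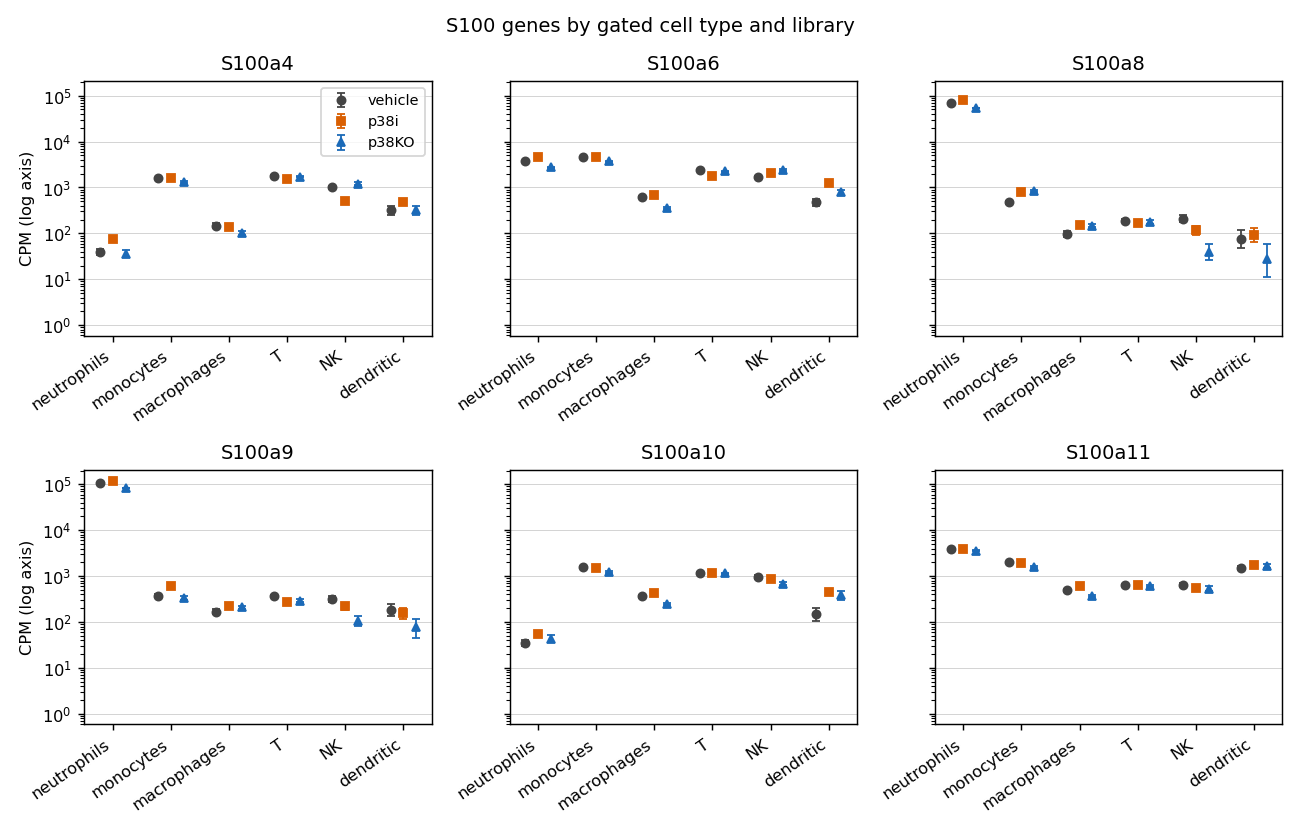
CPM of the 6 members in 6 gated cell types and 3 libraries, on a log axis shared by all panels, with exact Poisson 95% intervals. S100a8 and S100a9 are at 52771 CPM or more in neutrophils and at 833 CPM or less elsewhere, whereas S100a4 and S100a10 are at 74.8 CPM or less in neutrophils and at 1145 CPM or more in monocytes and T cells.

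T cells held the highest S100a4 level of any gate with vehicle and p38KO, at 1794 and 1732 CPM, and 1566 CPM with p38i, where monocytes were slightly higher with overlapping intervals. S100a6 had 2396, 1792 and 2240 CPM, S100a10 had 1196, 1145 and 1148 CPM, and S100a11 had 629, 636 and 616 CPM. None of the 6 members passed the limit in either comparison in T cells, where 16.9% of all genes did with p38i (11.4% higher and 5.49% lower) and 22.3% with p38KO (15.7% higher and 6.58% lower). Among S100a4, S100a6, S100a10 and S100a11, S100a6 with p38i had the ratio farthest from 0, at -0.42 (-0.47 to -0.37). The median of all genes was 0.08 for p38i and 0.12 for p38KO, and relative to it all ratios of the 6 members were negative, S100a11 with p38i included, which was 0.017 before. S100a9 with p38i then passed, at -0.53, but it was 0.32 with loose gates and 0.13 without the 1 vehicle and 2 p38i T cells with 20 or more S100a8 UMIs. S100a8 with p38i was 0.69 with loose gates, also past the limit, against -0.18 in the gate as set.

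Subsets of T cells showed more than the whole gate. In CD8 T cells, marked by Cd8a or Cd8b1 without Cd4, S100a4 had 2519, 2206 and 2089 CPM in 205, 196 and 102 cells. In CD4 T cells it had 699, 1379 and 2599 CPM in 67, 93 and 94 cells. The CD8 to CD4 log2 ratio of S100a4 was thus 1.85 with vehicle, 0.68 with p38i and -0.32 with p38KO. Between libraries, CD4 T cells had S100a4 ratios to vehicle of 0.98 (0.74 to 1.22) for p38i and 1.90 (1.68 to 2.12) for p38KO. When the subsets were set on counts at full depth these became 0.32 and 1.21, so both folds moved more than 1.5 times. S100a6 in CD4 T cells had 831, 1088 and 2099 CPM, and in CD8 T cells 3228, 2455 and 3535 CPM. T cells with Foxp3, the regulatory T cell factor, had 1046, 892 and 2243 CPM of S100a4 in 39, 73 and 45 cells. In T cells with Lef1 or Ccr7, genes of naive and central memory cells, S100a4 was lower than in those with neither, at 748, 643 and 596 CPM against 1989, 1688 and 1943 CPM. S100a6 had the same direction (1076, 1026 and 945 CPM against 2642, 1893 and 2482 CPM), in all 3 libraries. At full depth the S100a4 difference was 0.86, 0.89 and 0.70 on the log2 scale, against 1.41, 1.39 and 1.71 with thinned subsets. S100a10 was higher in Foxp3+ T cells than in CD8 T cells of every library, at 1417, 1581 and 1689 CPM against 1137, 1079 and 976 CPM.

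NK cells had 1003, 514 and 1212 CPM of S100a4 in 98, 103 and 95 cells, a log2 ratio of -0.97 (-1.17 to -0.77) for p38i. The NK cells with 20 or more S100a4 UMIs numbered 11, 3 and 7 and held 62.2%, 19.6% and 70.4% of its counts. Without them the levels were 503, 449 and 420 CPM and the p38i ratio was -0.16. S100a4 itself had chosen the cells left out, so this ratio does not stand apart from that choice. Their median depth was 11545, 10549 and 14806 UMIs, against 3931, 4243.5 and 4848.5 in the other NK cells. Under the 8 alternatives run for every ratio, the S100a4 ratio for p38i ran from -0.99 to -0.39 and passed the limit in 7. S100a6 had 1683, 2032 and 2452 CPM, with the p38KO ratio of 0.54 (0.43 to 0.66) past the limit. That ratio was 0.14 without the cells with 20 or more S100a4 UMIs. Under the same 8 alternatives it ran from 0.19 to 0.56 and passed in 7. S100a10 had 960, 880 and 691 CPM, and S100a11 had 640, 564 and 539 CPM. In each comparison 3 of 6 members passed in NK cells, where 27.9% of all genes did with p38i (11.6% higher and 16.3% lower) and 30.5% with p38KO (14.0% higher and 16.5% lower).

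Dendritic cells were few, 17, 31 and 21 in number, and 36.9% of all genes passed there with p38i (21.1% higher and 15.7% lower) and 36.4% with p38KO (23.5% higher and 12.9% lower). S100a11 was the leading member there, at 1496, 1794 and 1683 CPM, with intervals that overlapped the monocyte level in p38i and p38KO. S100a6 had 478, 1270 and 783 CPM, S100a10 had 150, 449 and 382 CPM, and S100a4 had 320, 493 and 317 CPM. S100a6 and S100a10 passed the limit as higher in both comparisons and S100a4 in p38i, while S100a8 and S100a9 passed as lower in p38KO. Under stricter gates the p38i ratio of S100a6 turned to -0.29 and that of S100a4 to -0.59, and that of S100a10 was 0.13. The p38KO ratio of S100a6 was 0.31 with equal weight per cell. With p38i, the 2 dendritic cells with the most counts of the gene held 41.6% of all counts for S100a6 and 42.6% for S100a10. Monocyte markers in this gate summed to 270, 661 and 390 CPM and macrophage markers to 46.3, 188 and 100 CPM. Of the dendritic cell markers, Xcr1 was highest with vehicle and p38KO and Fscn1 with p38i. The part of these markers in the differences was not tested.

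**Figure D5:**
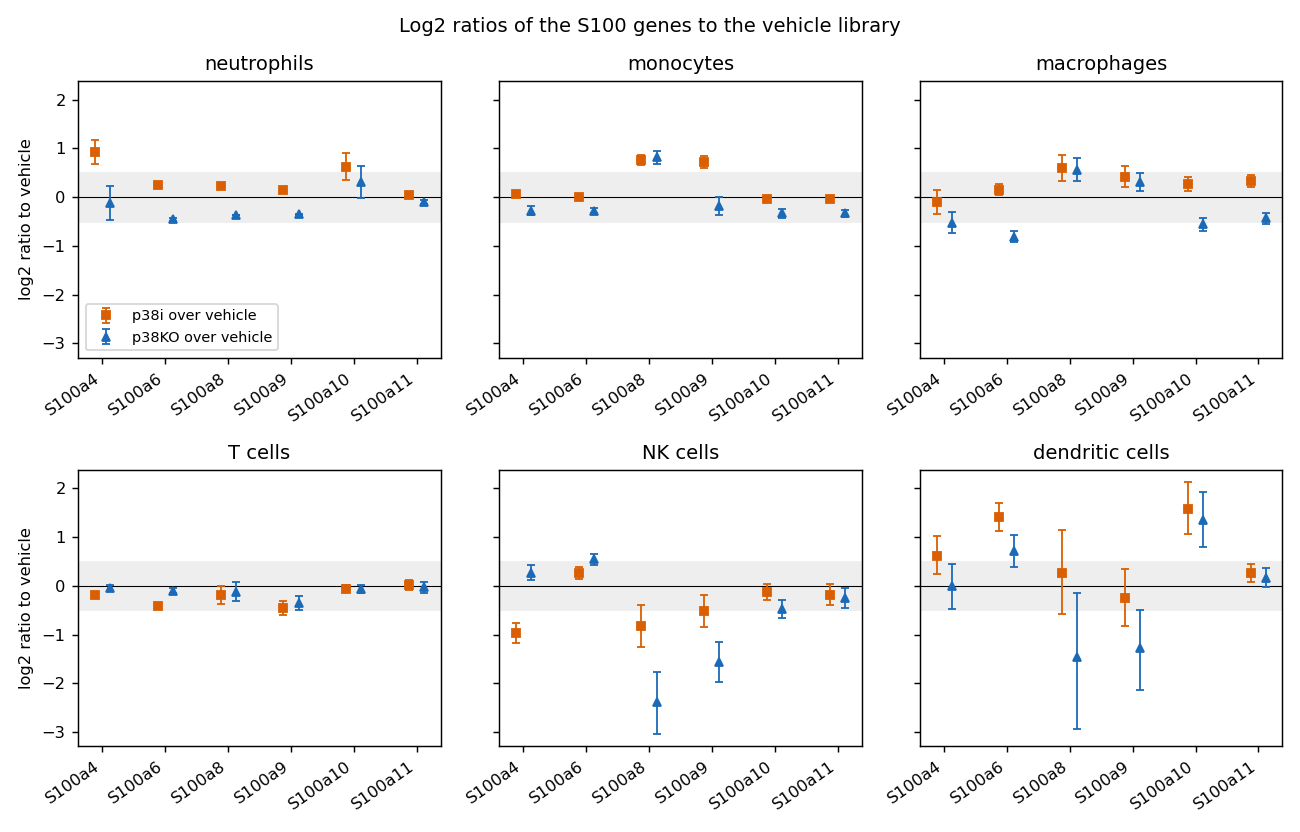
Log2 ratios of the 6 members to the vehicle library in each gate, with exact conditional binomial 95% intervals for counting error, and grey bands for the range within the fold limit of 0.5. The T cell ratios all lie within the band, and the widest interval is that of S100a8 in dendritic cells with p38KO, from -2.94 to -0.16.

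Over all gates, 11 of 36 pairs of member and gate passed the limit with p38i, 8 of them higher and 3 lower, and 12 of 36 with p38KO, 5 higher and 7 lower. By gate, the share of all genes past it ran from 16.9% to 36.9% with p38i (9.02% to 21.1% higher and 5.49% to 16.3% lower). With p38KO it ran from 22.3% to 36.4% (14.0% to 23.5% higher and 6.58% to 16.5% lower). A larger share of members than of all genes passed in neutrophils and monocytes with p38i, in macrophages with p38KO, and in NK and dendritic cells in both comparisons. The share was smaller in neutrophils and monocytes with p38KO, in macrophages with p38i, and in T cells in both. With only 6 members, a single gene moves these shares widely. Among the pairs past the limit were S100a8 and S100a9 in NK cells in both comparisons and in dendritic cells with p38KO. S100a8 in macrophages passed in both comparisons. In these gates both genes mostly did not stand above the T cell level in CPM. The neutrophil pairs with p38i were S100a4 and S100a10, nearly absent there.

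The members differed in where they were made. Over the 18 profiles of 6 gates and 3 libraries, which share libraries and depth within a gate, S100a8 and S100a9 had a Pearson correlation of log2(CPM + 10) of 0.984, and S100a4 and S100a10 of 0.922. S100a9 and S100a10 had -0.752, the most opposed pair. S100a6, present in every gate, had between 0.117 and 0.578 with the others. Among 2857 eligible genes, the profile most like S100a8 was that of Casp4, an inflammatory caspase (0.987), followed by Tmem38b and F3, which codes for tissue factor (both 0.980). Closest to S100a9 was Fpr1, a formyl peptide receptor (0.987), then Wfdc21 and F3 (both 0.985). Likeness over gates need not hold between libraries. In neutrophils Casp4 had 289, 269 and 343 CPM and F3 had 163, 135 and 185 CPM, the reverse order of S100a8 and S100a9. Wfdc21 had 1948, 2751 and 1205 CPM there, the same order as both. Ahnak, a large scaffold protein that the S100A10 and annexin A2 complex binds, was most like S100a4 (0.946), before Tpt1 (0.943) and Myl12a (0.899). S100a10 was most like Myl12a, a myosin light chain (0.970), Ifi203 (0.954) and Runx3 (0.943). For S100a6 the nearest were Lrrfip1 (0.937), Diaph1 (0.904) and Pstpip1 (0.895), and for S100a11 Spag9 (0.972), Fem1c (0.960) and Chd7 (0.95).

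Of 10 further S100 genes, only 3 reached 20 counts in any neutrophil comparison. S100a13 had 63.9, 80.1 and 52.4 CPM in neutrophils, 228, 265 and 189 CPM in monocytes and 343, 376 and 432 CPM in T cells, and it stayed within the limit in these gates. S100a1 had 5.51, 5.63 and 5.90 CPM in neutrophils and 47.5, 55.6 and 45.1 CPM in monocytes. S100a7a, at 2.45, 2.05 and 3.93 CPM in neutrophils, passed as higher in p38KO with an interval from -0.60 to 1.97. The median log2 ratio of these genes in neutrophils was 0.03 for p38i and 0.10 for p38KO, beside 0.12 and 0.10 over all genes.

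Receptors and binding partners of S100 proteins were read from a list of 20 genes, of which 19 had enough counts in neutrophils. Tlr4, the receptor of calprotectin, had 150, 125 and 161 CPM in neutrophils and 93.5, 73.8 and 70.3 CPM in monocytes, and Ager, the gene of RAGE, had at most 2.45 CPM in either. Of these 19, 2 were higher (Anxa6 and Ahnak) and 1 lower (Cd36) past the limit with p38i in neutrophils, where 22.9% of all genes passed. With p38KO 2 were lower (Cd36 and Bsg) and none higher, where 24.1% of all genes passed. Bsg, also called CD147 and a reported receptor of S100A9, had 621, 500 and 438 CPM there, with a p38KO log2 ratio of -0.51 (-0.60 to -0.41). Anxa2, the S100A10 partner, had 885, 860 and 784 CPM in neutrophils, where S100a10 itself was nearly absent, and 1908, 1871 and 1679 CPM in monocytes. Anxa1, the S100A11 partner, had 662, 751 and 516 CPM in neutrophils and 235, 296 and 241 CPM in monocytes. In monocytes Cd33, a sialic acid receptor that binds S100A9, was higher with p38i (48.0, 89.1 and 48.6 CPM; log2 ratio 0.89, 0.56 to 1.24) and Cd36 was lower. Cybb, the oxidase subunit, was higher there with p38KO (457, 557 and 718 CPM; 0.65, 0.52 to 0.79). In macrophages with p38KO, Cd33 was higher and Cd36, Emb, Anxa1 and Capg were lower, and with p38i Cd33 was higher and Cd36 lower. Of all genes, 18.3% (p38i) and 22.7% (p38KO) passed in monocytes, and 18.9% and 22.4% in macrophages. The list's median log2 ratio in neutrophils was 0.028 for p38i and 0.034 for p38KO, beside 0.12 and 0.10 over all genes.

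Among 10 regulators of S100 genes, Cebpb, a C/EBP factor of myeloid cells, was the most abundant, at 6992, 5238 and 5619 CPM in neutrophils and 2949, 2337 and 2718 CPM in monocytes. Spi1, the gene of PU.1, had 592, 518 and 675 CPM in neutrophils. Irf7, an interferon-regulated factor, passed the limit in opposite directions in neutrophils, at 272, 145 and 393 CPM. Its log2 ratio was -0.91 (-1.04 to -0.78) for p38i, whereas for p38KO it was 0.53 (0.42 to 0.64), the reverse order of S100a8. It did so in monocytes too, with 308, 201 and 474 CPM. In macrophages it was higher in both, with 55.9, 107 and 208 CPM. Also past the limit in neutrophils were Cebpe with p38i (6.33 against 11.3 CPM) and Cebpa with p38KO (3.88 against 7.87 CPM), both higher. In macrophages Fosl2 was lower in both comparisons, Klf2 was higher with p38i and Cebpb was lower with p38KO (846 against 564 CPM, -0.58). In monocytes Cebpe was lower with p38KO (27.4 against 16.5 CPM). These calls stand beside the shares of all genes past the limit given above for the same gates. The list's median in neutrophils was -0.11 for p38i and 0.26 for p38KO, beside 0.12 and 0.10 over all genes.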

How the data were processed

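Live CD45-positive cells of 3 libraries were profiled with a 10x droplet kit. Cell Ranger was run by the authors, in version 6.0.0 as the matrix headers state, and the submitters' processing notes name mm10 as the build. What the authors deposited are raw UMI counts for each gene in each barcode. Of these barcodes, cells were kept and gated on raw counts as described, and counts were summed per gate and library. No doublet caller was run. Exact Poisson, Clopper-Pearson and conditional binomial 95% intervals were computed in Python 3.11.15 with numpy 2.4.6, scipy 1.17.1 and pandas 2.3.3, and figures were drawn with matplotlib 3.10.9. A count of 0 was replaced by 0.5 in ratios. The gated counts ranged from 248918 to 5865349 UMIs and set the precision. Cells were thinned to 1500 UMIs with random seed 1. With 1 library per group no test, p-value or replicate error could be computed. Scripts were tested on simulated counts. The genes named are the members, genes of the lists past the limit in neutrophils, monocytes or macrophages or with the highest level of a list, and the 3 genes most like each member. The members and lists were chosen with earlier results of these data known. Alternatives in gating, scaling, weighting and filters are given at the end.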

Additional observations from a re-analysis of the deposited data

Results flagged for a closer look

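Log2 ratios to vehicle lay in opposite directions between gates in several cases, and none of these differences was tested, since each group is 1 library. Among neutrophils, monocytes, macrophages and T cells, 3 cases were more than 1 apart with intervals that left out 0. S100a4 with p38i stood at 0.93 in neutrophils and at -0.20 in T cells. S100a9 with p38i stood at 0.72 in monocytes and at -0.45 in T cells. Without the cells with 20 or more S100a8 UMIs these became -0.070 and 0.13. S100a8 with p38KO stood at -0.37 in neutrophils and at 0.82 in monocytes, which became -0.098 without the monocytes with 20 or more S100a8 UMIs. NK and dendritic cells, with fewer cells, gave further and wider gaps. In NK cells S100a4 with p38i stood at -0.97, and S100a8 stood at -0.82 with p38i and at -2.37 with p38KO, against 0.76 and 0.82 in monocytes. With p38KO, S100a6 stood at -0.81 in macrophages and at 0.71 in dendritic cells, and S100a10 at -0.56 and 1.34.

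S100a8 and S100a9 also took 7.92% of the UMIs of the p38i barcodes that failed the cell filter, against 5.81% with vehicle, and 4.76% with p38KO.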

How the results depend on the processing

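No paired analysis was possible because each group had 1 library, and no replicate could be left out. All neutrophil ratios of S100a8 and S100a9 kept their direction under every alternative run. For p38i the S100a8 log2 ratio was 0.17 with no cell filter, 0.25 with strict gates, 0.22 with loose gates, 0.12 with median-ratio scaling, 0.28 with a total without both genes, 0.25 with equal weight per cell and 0.22 without the 5% of cells with most UMIs. In the same order that of S100a9 was 0.10, 0.17, 0.14, 0.033, 0.19, 0.17 and 0.14. For p38KO the S100a8 ratio was -0.42 with no cell filter, -0.39 with loose gates, -0.46 with median-ratio scaling, -0.43 with a total without both genes, -0.23 with equal weight per cell and -0.26 without the 5% of cells with most UMIs. That of S100a9 was -0.39 with no cell filter, -0.34 with strict gates, -0.45 with median-ratio scaling, -0.41 with a total without both genes, -0.28 with equal weight and -0.30 without the 5%. A limit of 1 on the log2 scale left 2 pairs past it with p38i and 5 with p38KO. With a strict T cell gate, S100a8 in T cells was 0.18% of neutrophils for p38i and 0.19% for p38KO, and S100a9 was 0.22% and 0.20%.

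Some ratios turned, and the cause was not tested. Strict gates turned S100a10 in neutrophils with p38i (-0.046), S100a8 in macrophages with p38KO (-0.094), and S100a4 (-0.59) and S100a6 (-0.29) in dendritic cells with p38i. Loose gates turned S100a8 in macrophages, to -0.051 with p38i and -0.33 with p38KO. Equal weight per cell turned S100a8 in monocytes with p38KO (-0.31) and in macrophages with p38i (-1.02). Leaving out cells with 20 or more S100a8 UMIs, chosen after seeing the data, turned S100a9 (-0.070, p38i) and S100a8 (-0.098, p38KO) in monocytes. It also turned S100a8 in macrophages (-0.012 with p38i and -0.50 with p38KO). The S100a8 ratios do not stand apart from that choice, which S100a8 itself made. Subsets set at full depth turned S100a4 between neutrophil subsets (0.47), S100a9 between monocyte subsets (-0.15) and S100a9 between T cells with neither and with Lef1 or Ccr7 (0.0082), all with p38i. Of the 23 ratios past the limit, 8 stayed past it and 17 kept their direction under the 8 alternatives run for every ratio. Leaving out barcodes found in 2 libraries, also chosen after seeing the data, moved no value beyond its interval.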
